A study of Mus musculus with 6 samples.

Results

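The genes described here encode the machinery through which the T cell receptor signals, measured as mRNA in mouse natural regulatory T cells (nTregs, a suppressive class of CD4 T cells marked by Foxp3) after 6 h with an agonist of the prostaglandin E2 receptor EP4. They are 43 named genes, taken by symbol from the rows with a reference gene identifier, out of 47643 reference genes in each table. The 43 comprise 5 genes of CD3 chains and the co-receptor CD4, 5 kinases, 5 adaptors, 5 effectors and exchange factors, 9 genes of the calcium and NFAT branch, and 14 phosphatases and negative regulators. The 3 EP4 agonist libraries come from cells given 100 nM of an agonist that the labels do not name, and the 3 vehicle libraries from cells given DMSO. Cells of both groups were splenic, from C57BL/6 mice of the genotype Foxp3-DTR/EGFP, whose Foxp3 gene has been joined to a diphtheria toxin receptor and the green fluorescent protein that was used for the sort. Before the 6 h all of them had spent 2 days on immobilised antibody to CD3, with antibody to CD28 and IL-2 in the medium, so the receptor had been engaged in both groups. Whether that stimulus went on during the 6 h is not stated, nor are the age and sex of the mice or whether replicates are separate mice, cultures or aliquots. The p-values therefore measure the spread between libraries, which may be technical.

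In a T cell, engagement of the receptor lets the Src family kinase Lck phosphorylate the signalling motifs of the CD3 chains, and Zap70 docks there and phosphorylates the scaffold Lat and the adaptor SLP-76. From that scaffold, phospholipase C gamma 1 opens the calcium branch, which ends in calcineurin and NFAT, and the diacylglycerol branch, which ends in RAS and protein kinase C theta. Kinases, phosphatases and adaptors such as Csk, SHP-1, PTPN22 and the Src-like adaptors hold the cascade down, and regulatory T cells need receptor signals to keep their suppressive function. EP4 couples to the stimulatory G protein and raises cyclic AMP in T cells.

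Sequencing depth was 4.32 to 4.98 gigabases of aligned sequence in the agonist libraries and 4.49 to 5.65 gigabases in the vehicle libraries, as worked out from the deposited coverage and FPKM. The nTreg label was met by its markers: Foxp3 had 124 to 154 FPKM in the agonist libraries and 109 to 153 FPKM in the vehicle libraries. The summed FPKM of 7 Treg markers was 2743 to 2921 with agonist and 2170 to 2512 with vehicle, so these groups did not overlap, and the part of this in the results was not tested. By gene, the agonist libraries were all above the vehicle libraries for Ctla4, Tnfrsf18 and Il2rb. The groups overlapped for Foxp3, Ikzf2, Cd4 and Il2ra, the last with means of 850 FPKM with agonist and 848 FPKM with vehicle. Markers of other cells that a sort could carry over were low: CD8 T cells summed to 4.53 to 6.41 FPKM with agonist and 3.89 to 5.43 FPKM with vehicle (2 markers). B cell markers (5) summed to 3.69 to 6.20 FPKM with agonist and 5.64 to 5.93 FPKM with vehicle, and myeloid markers (5) to 0.272 to 0.623 FPKM with agonist and 0.186 to 0.960 FPKM with vehicle. Neutrophil (3 markers, S100a8 and S100a9 at 0 in all 6 libraries), dendritic (3) and NK cell (3) markers summed to at most 0.794 FPKM in any library. Red cell markers (3) summed to 0.637 to 2.66 FPKM with agonist and 1.56 to 5.82 FPKM with vehicle.

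After 6 h of EP4 agonist the mRNA of the CD3 chains differed from vehicle by at most 0.08 on the log2(FPKM + 1) scale, while some brakes and single steps just below the receptor differed by more, in both directions. The Src-like adaptor gene Sla and the adaptor gene Samsn1 rose, each about 1.5-fold on that scale. Both calls were lost on leaving out any single library but vehicle library 1, and also without the filter on low FPKM. With the replicate number as a block, 3 more rose, the adaptor Sla2, the phosphatase Ptpn22 and the kinase Txk. In that fit 5 fell, the kinases Zap70 and Csk, the scaffold Lat, the phosphatase Ptpn6 and the transcription factor Nfatc2. On leaving out any 1 pair with the block, Zap70, Csk, Lat, Nfatc2 and Ptpn22 no longer passed. Sla2, Txk and Ptpn6 passed without pair 1, and not without pair 2 or pair 3. In such bulk samples, fewer cells of a type and less RNA per cell cannot be told apart. All 43 genes passed the filter of at least 1 FPKM in 3 libraries or more and were tested by limma on log2(FPKM + 1), with adjustment over all 12186 genes tested and a threshold of 0.05. Of the 43, 2 rose (4.65%) and 0 fell, with 6 lower and 5 higher at an unadjusted p under 0.05. Of all tested genes 0.394% passed, 0.345% higher and 0.0492% lower. The members were chosen with earlier results of these data known, so their shares here and below are not independent of the data.

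Both groups are numbered 1 to 3, and same-numbered libraries deviated together from their group means, so the number was also fitted as a block. With the block 5 of the 43 rose (11.6%) and 5 fell (11.6%), where 4.09% of all tested genes rose and 6.41% fell. With quantile normalization as well as the block, 6 rose and 3 fell, because Lat and Csk no longer passed and Cd4 did. With the block and without pair 1, limma called 4 members higher and 1 lower, where it called 151 and 90 of all tested genes. Without pair 2 it called 0 members (6 higher and 7 lower at an unadjusted p under 0.05) and 0 of all tested genes (954 and 1603 unadjusted). Without pair 3 it called 0 members (7 and 8 unadjusted) and 1 of all tested genes. The 10 members kept their direction in these fits, with log2 fold changes for instance of -0.53 to -0.38 for Zap70 and 0.55 to 0.72 for Ptpn22. The lowest adjusted p in these fits was 0.0807 for Zap70, 0.0503 for Csk, 0.0756 for Lat, 0.0568 for Nfatc2 and 0.0605 for Ptpn22. The groups did not overlap for 14 of the 43 genes (32.6%), 5 with agonist above vehicle and 9 below, where 19.4% of all tested genes were separated, 7.27% above and 12.1% below. The median log2 fold change of the 43 was -0.05, and that of all tested genes was -0.03.

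**Figure D1:**
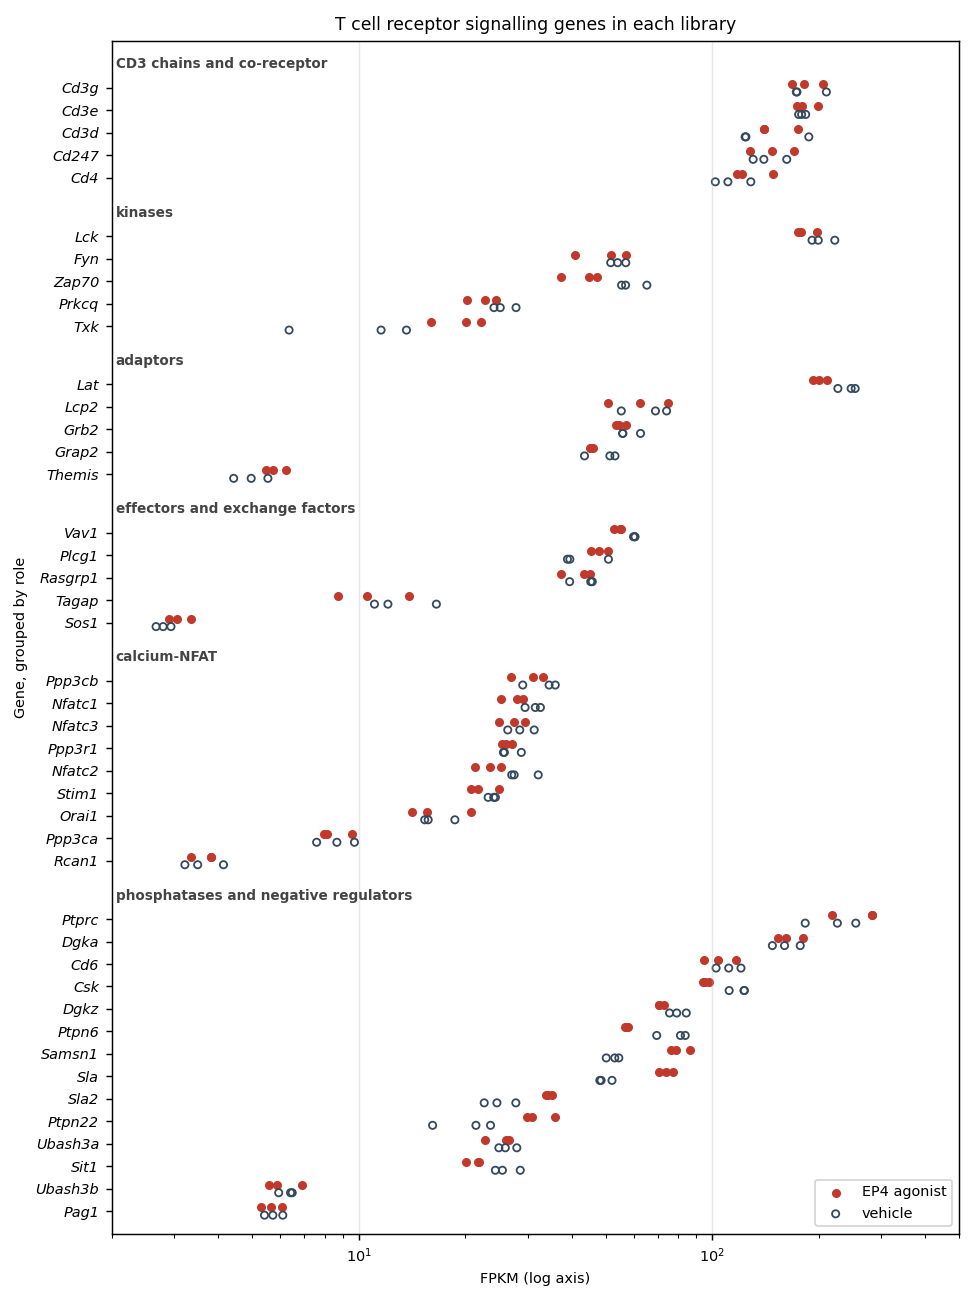
FPKM on a log axis of each of the 43 genes in the 3 EP4 agonist libraries (filled, upper of each pair of rows) and the 3 vehicle libraries (open), grouped by role. Levels run from about 3 FPKM for Sos1 to 241 FPKM for Ptprc, and filled and open points lie apart for 14 genes, among them Samsn1, Sla, Sla2 and Ptpn22, where the agonist is higher, and Ptpn6, Csk, Zap70 and Lat, where it is lower.

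The promoter sequences below are shown for Zap70, Txk and Sla2, the genes past the threshold with the block whose promoter held a match to the cyclic AMP response element or its half-site, and for Samsn1, which passed both fits and held none. They are RefSeq windows of GRCm38.p6, the assembly that mm10 is drawn from, and give the 250 bases before the annotated start on the gene's own strand, 5′ to 3′. Capitals mark TGACGTCA or TGACG on either strand, and the half-site lies inside the full motif. The windows are chr1:36761548-36761797 on the plus strand for Zap70, and on the minus strand chr5:72752778-72753027 for Txk, chr2:156887222-156887471 for Sla2 and chr16:75909267-75909516 for Samsn1.
Zap70: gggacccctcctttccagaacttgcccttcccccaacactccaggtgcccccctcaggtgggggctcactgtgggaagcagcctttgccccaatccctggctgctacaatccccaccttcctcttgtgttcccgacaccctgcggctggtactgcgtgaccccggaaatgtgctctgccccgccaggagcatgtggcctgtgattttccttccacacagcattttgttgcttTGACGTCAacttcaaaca
Txk: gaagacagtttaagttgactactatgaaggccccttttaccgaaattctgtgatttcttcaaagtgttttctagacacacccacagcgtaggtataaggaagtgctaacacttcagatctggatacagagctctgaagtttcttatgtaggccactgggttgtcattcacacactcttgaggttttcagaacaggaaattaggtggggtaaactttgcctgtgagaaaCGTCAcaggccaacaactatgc
Sla2: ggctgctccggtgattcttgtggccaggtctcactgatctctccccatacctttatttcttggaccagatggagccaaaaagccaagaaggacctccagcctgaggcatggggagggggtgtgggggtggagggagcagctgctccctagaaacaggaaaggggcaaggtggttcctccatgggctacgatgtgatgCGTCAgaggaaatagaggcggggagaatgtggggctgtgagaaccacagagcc
Samsn1: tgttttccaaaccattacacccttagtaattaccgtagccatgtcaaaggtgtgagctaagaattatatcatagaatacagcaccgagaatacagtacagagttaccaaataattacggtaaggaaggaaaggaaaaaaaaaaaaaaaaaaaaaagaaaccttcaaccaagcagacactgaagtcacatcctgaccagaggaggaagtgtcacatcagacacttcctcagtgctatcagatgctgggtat
The match in Zap70 is the full palindrome and begins at position -18, counted back from the start site. The half-sites begin at position -22 in Txk and -53 in Sla2. A RefSeq window was found for 37 of the 43 genes, and the one nearest the start of the deposited gene model was searched for each. Sla, which also passed both fits, was among the 6 genes not searched. For Samsn1 that window lies 113004 bases inside the deposited gene model, at the start of a shorter transcript. Zap70 was the only one of the 37 with the full motif, which 1.55% of all 32851 windows held. A second window of Rcan1, 66068 bases inside its model, also held it, at position -175. The half-site was in 3 of the 9 windows of genes past the threshold with the block, in 5 of the 28 others, and in 17.8% of all windows. A match is a description of the letters and not a shown binding site.

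The CD3 chains and CD4 were among the more abundant mRNAs of the set, and none of the 5 passed either test (0 at an unadjusted p under 0.05 without the block, and Cd4 alone with it). Cd3g, the gamma chain, had 206, 182 and 168 FPKM in agonist libraries 1, 2 and 3 and 210, 173 and 174 FPKM in vehicle libraries 1, 2 and 3. Cd3e, the epsilon chain, had 199, 180 and 174 FPKM with agonist and 179, 175 and 184 FPKM with vehicle. Cd3d, the delta chain, had 174, 140 and 140 FPKM with agonist and 187, 124 and 124 FPKM with vehicle. For these chains the groups overlapped, and Cd3d and Cd3g were highest in the library numbered 1 of both groups. Cd247, the zeta chain that carries most of the receptor's signalling motifs, had 170, 128 and 148 FPKM with agonist and 162, 130 and 140 FPKM with vehicle. The log2 fold changes of the 4 chains lay between -0.00 and 0.08, and the widest 95% interval, that of Cd3d, ran from -0.34 to 0.50. Cd3g had a positive sign with quantile normalization (0.05) and upper quartile scaling (0.04). Cd4, the co-receptor that brings Lck to the complex, had 149, 117 and 122 FPKM with agonist and 128, 102 and 111 FPKM with vehicle. Each agonist library was above the vehicle library of its own number, by a log2 fold change of 0.18 (SE 0.13, adjusted p = 0.567, and 0.0696 with the block). With quantile normalization and the block Cd4 passed (adjusted p = 0.0464).

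Of the 5 kinases 0 passed without the block (1 higher and 1 lower at an unadjusted p under 0.05), and with it Txk rose and Zap70 fell. With the block 10.5% of all tested genes passed in either direction. Zap70 (ENSMUSG00000026117.10, chromosome 1, 36761798 to 36782818, mm10), whose promoter is printed above, had 47.1, 37.2 and 44.8 FPKM with agonist and 65.3, 56.8 and 55.4 FPKM with vehicle. The groups did not overlap, and the log2 fold change was -0.45 with a standard error of 0.11 (adjusted p = 0.168, and 0.0275 with the block). Txk (ENSMUSG00000054892.14, chromosome 5, 72695978 to 72752777), a Tec family kinase that acts on phospholipase C gamma 1, had 20.0, 15.96 and 22.2 FPKM with agonist and 13.6, 6.35 and 11.6 FPKM with vehicle. Vehicle library 2 was the lowest of the 6, and the lowest agonist library was above the highest vehicle library. Its log2 fold change of 0.87 (SE 0.25, adjusted p = 0.213, and 0.0290 with the block) was the highest of the 43, with a 95% interval of 0.28 to 1.47. Without vehicle library 2 its log2 fold change was 0.58.

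The remaining kinases passed neither test. Lck, the kinase that starts the cascade, had 197, 175 and 178 FPKM with agonist and 222, 191 and 199 FPKM with vehicle, a log2 fold change of -0.15 (SE 0.09, adjusted p = 0.509, and 0.0978 with the block). Each agonist library was below the vehicle library of its number, and the groups overlapped. Prkcq, protein kinase C theta, had 22.8, 20.2 and 24.5 FPKM with agonist and 25.1, 24.1 and 27.8 FPKM with vehicle (adjusted p = 0.440, and 0.0732 with the block). Fyn, the second Src family kinase at the receptor, had 57.1, 40.9 and 51.8 FPKM with agonist and 56.9, 51.6 and 54.0 FPKM with vehicle (adjusted p = 0.700). Per length, Lck mRNA was the most abundant of the kinases at a mean of 194 FPKM over the 6 libraries, against 52.0 for Fyn, 51.1 for Zap70, 24.1 for Prkcq and 14.9 for Txk.

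Among the 5 adaptors, Lat fell with the block and 0 passed without it (1 lower at an unadjusted p under 0.05). Over all tested genes 10.5% passed with the block in either direction. Lat (ENSMUSG00000030742.7, chromosome 7, 126363824 to 126369570), the membrane scaffold that Zap70 phosphorylates, had 193, 212 and 201 FPKM with agonist and 227, 247 and 254 FPKM with vehicle. The groups did not overlap, and the log2 fold change was -0.26 (SE 0.09, adjusted p = 0.259, and 0.0426 with the block). With quantile normalization as well as the block it was -0.23 with an adjusted p of 0.068. Lcp2, which encodes SLP-76, had 74.9, 50.8 and 62.4 FPKM with agonist and 74.2, 69.0 and 55.3 FPKM with vehicle. Its groups overlapped, with the widest 95% interval of the adaptors, -0.47 to 0.30. Grap2, the bridge between Lat and SLP-76, had 44.9, 45.4 and 46.0 FPKM with agonist and 43.5, 51.3 and 53.0 FPKM with vehicle. Grb2, which links Lat to the exchange factor Sos1, had 54.3, 53.5 and 57.0 FPKM with agonist and 55.7, 55.8 and 62.6 FPKM with vehicle. Themis, an adaptor known from thymocyte selection, was far lower, with 5.71, 6.23 and 5.46 FPKM with agonist and 4.42, 4.96 and 5.53 FPKM with vehicle. These 4 passed neither test.

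None of the 5 effectors and exchange factors passed either test (0 at an unadjusted p under 0.05 without the block, and 2 lower with it). Vav1, an exchange factor for RAC, had 54.6, 52.7 and 55.2 FPKM with agonist and 59.8, 60.4 and 60.3 FPKM with vehicle. Its groups did not overlap, and the log2 fold change was -0.15 (SE 0.07, adjusted p = 0.378, and 0.0936 with the block). Plcg1, the phospholipase itself, had 50.7, 47.7 and 45.4 FPKM with agonist and 50.8, 38.9 and 39.5 FPKM with vehicle (adjusted p = 0.584). Rasgrp1, a RAS exchange factor that diacylglycerol recruits, had 45.0, 37.4 and 43.3 FPKM with agonist and 45.7, 39.5 and 45.3 FPKM with vehicle (adjusted p = 0.857). Sos1, the other RAS exchange factor of the set, was the lowest of the 43, with 3.34, 2.91 and 3.06 FPKM with agonist and 2.79, 2.67 and 2.94 FPKM with vehicle. Tagap, a T cell activation gene with a GTPase-activating domain, had 13.8, 8.73 and 10.5 FPKM with agonist and 16.6, 11.1 and 12.1 FPKM with vehicle. Each agonist library of Tagap was below the vehicle library of its number, while the groups overlapped (adjusted p = 0.613, and 0.0547 with the block).

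In the calcium and NFAT branch, Nfatc2 fell with the block and 0 of 9 passed without it (1 lower at an unadjusted p under 0.05). The share past the threshold with the block was 11.1% of the 9, near the 10.5% of all tested genes in either direction. Nfatc2 (ENSMUSG00000027544.16, chromosome 2, 168476410 to 168601657), which encodes the NFAT1 protein, had 23.6, 21.3 and 25.2 FPKM with agonist and 27.5, 27.1 and 32.2 FPKM with vehicle. The groups did not overlap, with a log2 fold change of -0.30 (SE 0.10, adjusted p = 0.272, and 0.0339 with the block). Nfatc1, which encodes the NFAT2 protein, had 29.0, 25.3 and 28.0 FPKM with agonist and 32.6, 29.5 and 31.6 FPKM with vehicle. It too was lower in each agonist library than in each vehicle library, by a log2 fold change of -0.18 (SE 0.08, adjusted p = 0.389, and 0.0649 with the block). Nfatc3 had 27.4, 24.9 and 29.6 FPKM with agonist and 28.5, 26.4 and 31.3 FPKM with vehicle, and these groups overlapped (adjusted p = 0.793). The 3 NFAT genes stood at similar levels per length, with means of 26.1 FPKM for Nfatc2, 29.3 FPKM for Nfatc1 and 28.0 FPKM for Nfatc3 over the 6 libraries.

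The log2 fold changes of Stim1 (calcium sensor of the endoplasmic reticulum), Orai1 (the channel it opens), Ppp3ca and Ppp3cb (catalytic chains of calcineurin) and Ppp3r1 (its regulatory chain) lay between -0.12 and 0.01. Orai1 had 20.8, 15.6 and 14.1 FPKM with agonist and 18.7, 15.4 and 15.7 FPKM with vehicle. Of the catalytic chains, Ppp3cb was the more abundant per length, at a mean of 31.8 FPKM against 8.60 FPKM for Ppp3ca. The direction of Ppp3ca and Ppp3r1 turned positive with quantile normalization and with upper quartile scaling. Rcan1, an inhibitor of calcineurin that is itself a known NFAT target, had 3.81, 3.36 and 3.83 FPKM with agonist and 4.14, 3.22 and 3.50 FPKM with vehicle. Its log2 fold change was 0.02, with a 95% interval of -0.25 to 0.28 (adjusted p = 0.965).

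**Figure D2:**
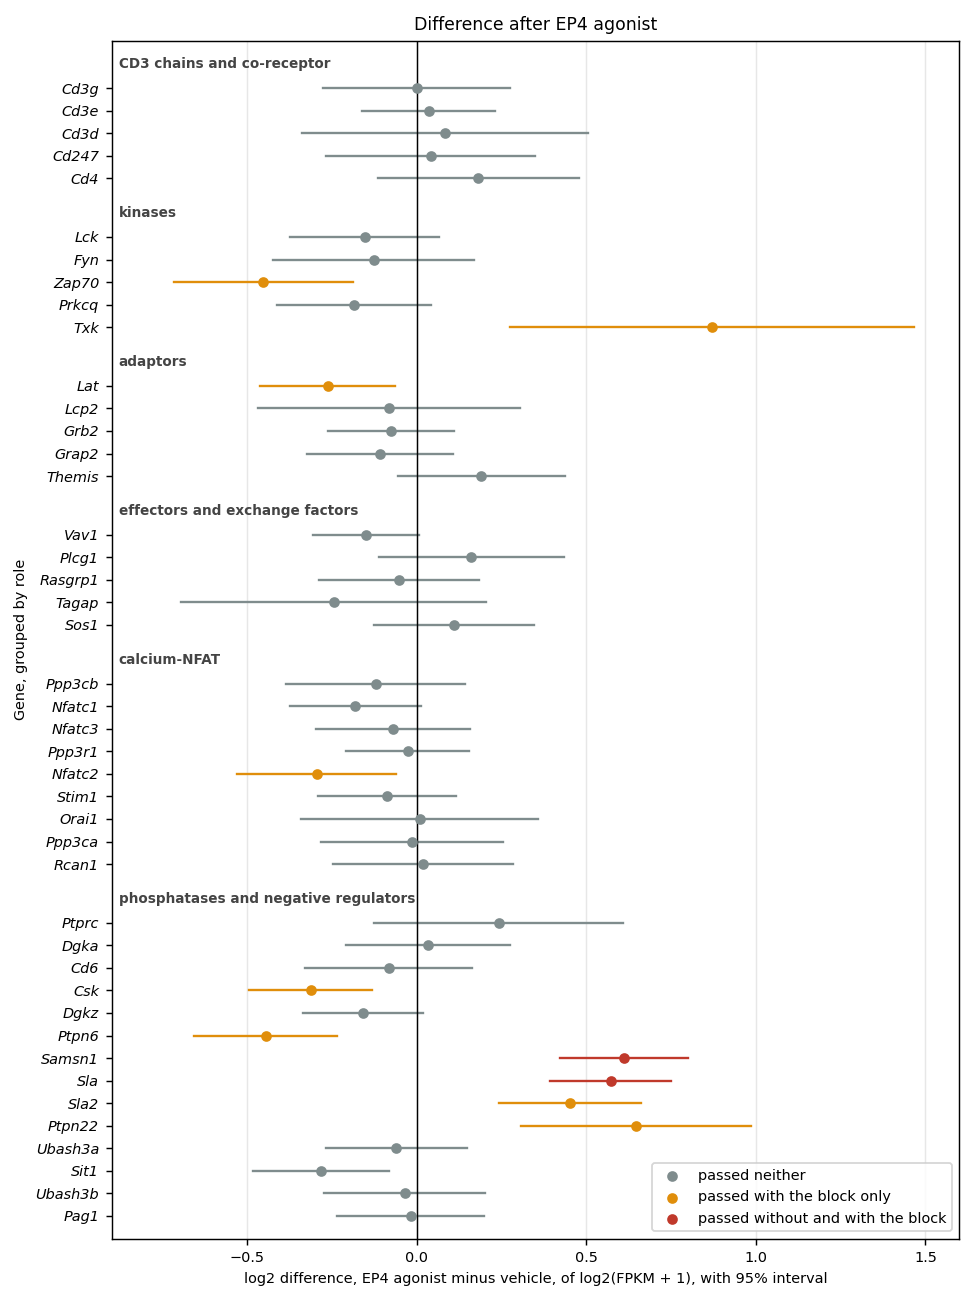
Difference on the log2(FPKM + 1) scale between EP4 agonist and vehicle (points) with 95% intervals from limma without the block (lines), for the 43 genes by role. Sla and Samsn1 (red) passed without and with the block, 8 genes (orange) with the block only. The points of the CD3 chains lie within 0.09 of 0, with intervals that reach further.

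Most calls fell among the phosphatases and negative regulators, the largest role with 14 of the 43 genes. Of the 14, 2 rose without the block, where 0.345% of all tested genes rose. With the block 4 rose and 2 fell, where 4.09% of all tested genes rose and 6.41% fell. The groups were apart for 8 of the 14 genes, 4 with agonist above vehicle and 4 below, where 7.27% of all tested genes were apart above and 12.1% below. Whether calls were more frequent in this role than in the others was not tested. As the members were chosen with earlier results known, these shares are not independent of the data. Sla (ENSMUSG00000022372.14, chromosome 15, 66780819 to 66831829) encodes the Src-like adaptor protein SLAP, which brings the ubiquitin ligase CBL to the CD3 zeta chain. It had 70.8, 77.6 and 73.8 FPKM with agonist and 52.0, 48.0 and 48.5 FPKM with vehicle. The lowest agonist library was above the highest vehicle library, and the log2 fold change was 0.57 (SE 0.08, adjusted p = 0.0333, and 0.0187 with the block). Samsn1 (ENSMUSG00000022876.17, chromosome 16, 75858793 to 76022270), an adaptor with SH3 and SAM domains best known as a brake in B cells, had 76.5, 79.1 and 86.4 FPKM with agonist and 54.4, 50.1 and 53.0 FPKM with vehicle. Its groups were also apart, with a log2 fold change of 0.61 (SE 0.08, adjusted p = 0.0329, and 0.0167 with the block). Both passed without vehicle library 1, and neither passed without agonist library 1, 2 or 3 or vehicle library 2 or 3, where the adjusted p was 0.0930 to 0.192 for Sla and 0.0930 to 0.174 for Samsn1. The log2 fold change in those fits and that without vehicle library 1 was 0.54 to 0.61 for Sla and 0.56 to 0.65 for Samsn1. Without a filter on low FPKM, where 26424 genes were tested, neither passed (adjusted p = 0.134 for Sla and 0.139 for Samsn1).

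Sla lies inside the gene model of thyroglobulin, Tg, on the opposite strand, and the strand setting of the abundances is not given. Tg had 4.36, 5.24 and 2.35 FPKM with agonist and 1.31, 1.39 and 0.752 FPKM with vehicle. The Tg rows thus also stood higher in the agonist libraries, at a level far under that of Sla, and the part of either gene's reads in the other's value was not tested.

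Sla2 and Ptpn22 rose with the block. Sla2 (ENSMUSG00000027636.11, chromosome 2, 156872457 to 156887192), the second Src-like adaptor, had 35.3, 33.9 and 34.2 FPKM with agonist and 27.8, 22.6 and 24.6 FPKM with vehicle. Its groups were apart, with a log2 fold change of 0.45 (SE 0.09, adjusted p = 0.111, and 0.0227 with the block). The gene 1110008F13Rik overlaps it on the opposite strand and had 29.3 to 38.5 FPKM with agonist and 36.6 to 45.5 FPKM with vehicle, a difference in the other direction. Ptpn22 (ENSMUSG00000027843.13, chromosome 3, 103859795 to 103912247), a phosphatase that acts on Lck and Zap70, had 35.9, 29.9 and 30.9 FPKM with agonist and 23.6, 16.2 and 21.4 FPKM with vehicle. Its groups were apart too, with a log2 fold change of 0.65 (SE 0.14, adjusted p = 0.143, and 0.0209 with the block).

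Ptpn6 and Csk fell with the block. Ptpn6 (ENSMUSG00000004266.15, chromosome 6, 124720707 to 124738714) encodes SHP-1, a phosphatase of proximal kinases. It had 56.9, 57.6 and 56.5 FPKM with agonist and 69.6, 83.8 and 81.3 FPKM with vehicle, so the agonist libraries were close together and all under the vehicle libraries. Its log2 fold change was -0.45 (SE 0.09, adjusted p = 0.118, and 0.0266 with the block). Without the block it passed on leaving out vehicle library 1 (adjusted p = 0.0342), where 107 of all tested genes were higher and 26 lower. On leaving out any other library it did not pass (adjusted p up to 0.380). Csk (ENSMUSG00000032312.6, chromosome 9, 57626647 to 57645653), the kinase that phosphorylates the inhibitory tyrosine of Lck and Fyn, had 97.9, 95.1 and 93.9 FPKM with agonist and 112, 123 and 123 FPKM with vehicle. The groups did not overlap, and the log2 fold change was -0.31 (SE 0.08, adjusted p = 0.167, and 0.0395 with the block). With quantile normalization as well as the block the adjusted p of Csk was 0.0874. Pag1, the membrane anchor of Csk, had 5.63, 5.27 and 6.06 FPKM with agonist and 5.71, 5.41 and 6.09 FPKM with vehicle (adjusted p = 0.953).

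**Figure D3:**
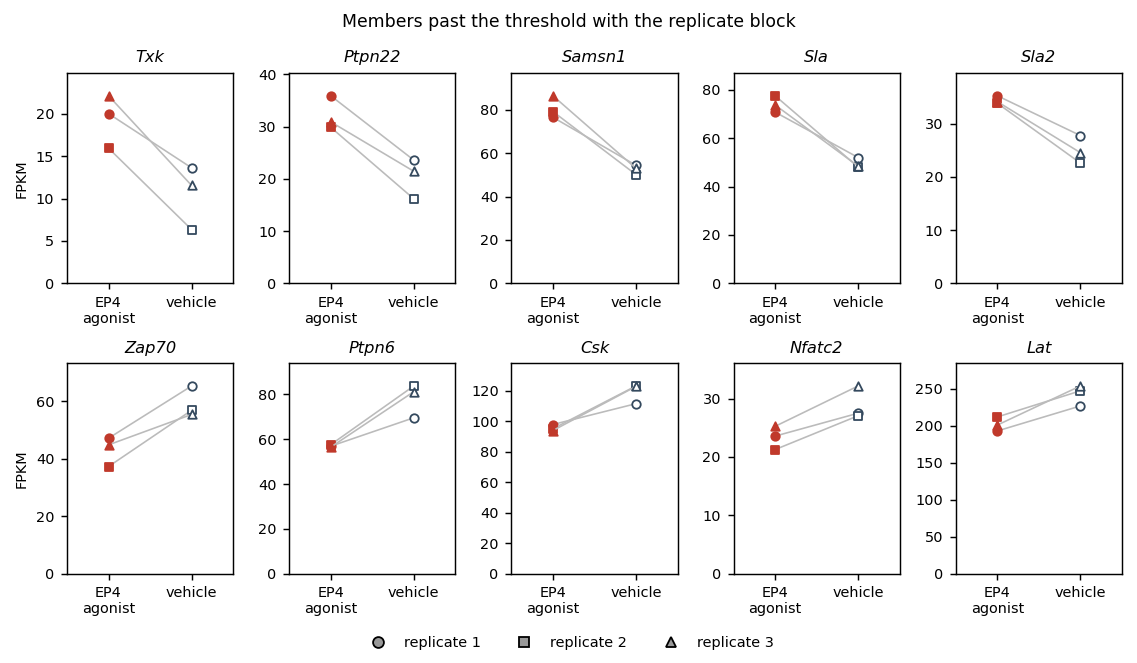
FPKM in each library of the 10 genes past the threshold with the replicate block, EP4 agonist left and vehicle right, with lines joining libraries of the same number. The upper row holds the 5 genes that are higher with agonist in each of the 3 pairs, and the lower row the 5 that are lower in each.

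The remaining negative regulators passed neither test. Sit1, a transmembrane adaptor that binds inhibitory signalling proteins, had 21.7, 20.1 and 21.9 FPKM with agonist and 28.6, 25.5 and 24.3 FPKM with vehicle, and its groups were apart (log2 fold change -0.28, SE 0.09, adjusted p = 0.225, and 0.0553 with the block). Dgkz, one of the diacylglycerol kinases that remove the messenger of the RAS branch, had 70.5, 72.9 and 70.4 FPKM with agonist and 75.7, 84.4 and 79.3 FPKM with vehicle. Its groups were apart as well (log2 fold change -0.16, SE 0.08, adjusted p = 0.401, and 0.0931 with the block). Dgka, the other such kinase, had 181, 154 and 161 FPKM with agonist and 177, 148 and 160 FPKM with vehicle, with a log2 fold change of 0.03 and a 95% interval of -0.21 to 0.27. Ptprc, which encodes CD45, a phosphatase that both frees and restrains Lck, was the most abundant of the 43 by mean FPKM, at 283, 218 and 283 FPKM with agonist and 255, 183 and 226 FPKM with vehicle. Each agonist library of Ptprc was above the vehicle library of its number (log2 fold change 0.24, SE 0.16, adjusted p = 0.535, and 0.0609 with the block). Cd6, a surface receptor that tunes the cascade, had 117, 95.01 and 104 FPKM with agonist and 120, 102 and 111 FPKM with vehicle. Of the STS phosphatases, Ubash3a had 26.7, 22.8 and 26.1 FPKM with agonist and 24.9, 26.0 and 28.0 FPKM with vehicle. Ubash3b had 5.88, 5.56 and 6.90 FPKM with agonist and 6.48, 5.93 and 6.41 FPKM with vehicle. The agonist and vehicle libraries overlapped for these 3 genes.

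Values of the set also went with the replicate number. The library numbered 1 was the highest of its group in both groups for 19 of the 43 genes and the lowest in both for 3. Library 1 was the highest in both for 4 of the 5 genes of CD3 chains and CD4, 3 of 5 kinases and 4 of 14 negative regulators. The share of all tested genes so placed was not worked out. Same-numbered libraries deviated together over all tested genes, so these counts cannot be read as particular to the set. Over the same-numbered pairs, the agonist library was higher in all 3 for 9 of the 43 genes (20.9%) and lower in all 3 for 18 (41.9%), where 20.7% and 31.6% of all tested genes were so placed. The coefficient of variation within a group had a median of 8.45% over the 43 genes with agonist and 8.65% with vehicle. The 95% interval of the log2 fold change without the block lay within a 1.5-fold change either way for 34 of the 43 genes, including all 9 of the calcium and NFAT branch, all 5 adaptors and all 5 genes of CD3 chains and CD4. It reached beyond for 9 genes: Zap70, Txk, Tagap, Ptprc, Ptpn6, Ptpn22, Sla, Sla2 and Samsn1.

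Further genes of the pathway, 83 in a list from general knowledge, gave 79 that were tested. The list was drawn up with earlier results of these data known, so its counts are not independent of the data. Without the block 0 of the 79 passed limma's test (9 higher and 3 lower at an unadjusted p under 0.05), and with it 8 were called higher and 1 lower. Among the 8, Nf1 passed the filter on low FPKM through the agonist libraries alone and so had to differ. Of the other 78 genes 7 rose and 1 fell with the block, beside 4.09% and 6.41% of all tested genes. Their median log2 fold change was 0.02. Cblb, a ubiquitin ligase that raises the threshold of activation, had 21.1, 14.8 and 16.1 FPKM with agonist and 14.9, 9.66 and 11.5 FPKM with vehicle (log2 fold change 0.50, adjusted p = 0.294, and 0.0175 with the block). Here the groups overlapped, as library 1 was the highest in both.

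Tnfaip3, which encodes the ubiquitin-editing enzyme A20, had 15.7, 9.91 and 13.0 FPKM with agonist and 10.8, 6.43 and 7.15 FPKM with vehicle (log2 fold change 0.61, adjusted p = 0.282, and 0.0210 with the block). Nf1, a GTPase-activating protein for RAS, had 2.16, 1.80 and 2.35 FPKM with agonist and 0.983, 0.833 and 0.861 FPKM with vehicle, and is given without a test for the reason above. Rasa1, another such protein, had 35.4, 28.6 and 34.7 FPKM with agonist and 31.1, 23.5 and 27.7 FPKM with vehicle (adjusted p = 0.0408 with the block). The protease gene Malt1 had 26.8, 23.7 and 24.5 FPKM with agonist and 23.6, 19.2 and 20.5 FPKM with vehicle (adjusted p = 0.0459 with the block), and its groups were apart. Pik3r1, a regulatory chain of phosphoinositide 3-kinase, and Sh2d2a, a T cell adaptor, passed with the block at adjusted p = 0.0345 and 0.0453, with log2 fold changes of 0.32 and 0.25. Prkd2, a protein kinase D, fell with the block and had 63.9, 54.4 and 58.5 FPKM with agonist and 72.7, 69.6 and 68.8 FPKM with vehicle (log2 fold change -0.25, adjusted p = 0.264, and 0.0477 with the block).

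**Figure D4:**
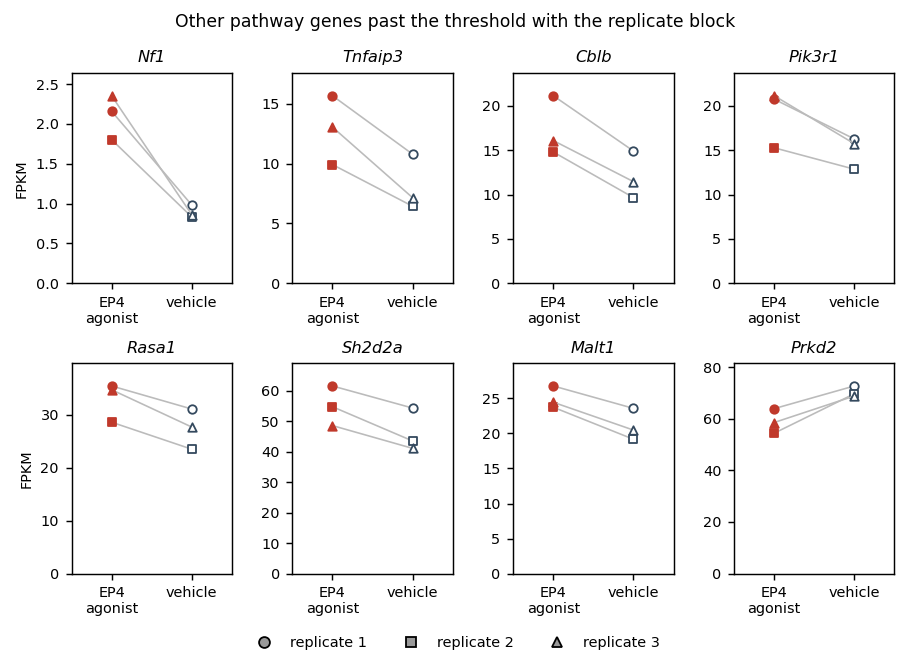
FPKM in each library of 8 further pathway genes past the threshold with the replicate block, EP4 agonist left and vehicle right, with lines joining libraries of the same number. In each panel but that of Prkd2 the 3 agonist libraries are above the vehicle library of the same number, and Nf1 stays under 2.4 FPKM in every library. Nf1 passed the filter on low FPKM through the agonist libraries alone, so its place past the threshold is not a test result.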

How the data were processed

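RNA of GFP-sorted cells went into 6 mRNA libraries by the TruSeq Stranded protocol, per the labels' protocols. The authors deposited 1 table per library on mm10 with coverage (signal per base) and FPKM (fragments scaled by transcript length and library size) for each gene, per the file headers; the submitters' processing notes list Trim Galore and HISAT2. Of the counting program, annotation release and strand setting, nothing is given in the sources used here. FPKM was used as deposited, after summing the 20 gene identifiers split over several rows. Fragment counts were not among the deposited columns, so no counting interval is given. Aligned bases came from the most common ratio of coverage to FPKM. In each library 24.5 to 25.3% of the rows above 5 FPKM shared it within 0.1%.

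Differences in log2(FPKM + 1) were tested with limma 3.58.1 (intensity trend, robust variances, statmod 1.5.0, R 4.3.3), two-sided, with Benjamini-Hochberg adjustment over 12186 genes. This scale understates changes of low genes. Groups came from the titles. Deviations from group means correlated at 0.512, 0.404 and 0.321 for pairs 1, 2 and 3, and at -0.353 to 0.002 for other pairs, so numbers were taken to pair libraries. The labels do not say what they mark. Since the same libraries chose and fitted the block, its p-values may be too small.

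Members and lists were chosen with earlier results of these data known. Members past the threshold in either fit, then heads of roles and separated genes, are described in full; of the 9 further pathway genes past the threshold with the block 8 are named, the rule's limit, and 1 is not reported here. Carmil2 was matched by its older symbol Rltpr. Python 3.11.15, pandas 2.3.3, numpy 2.4.6 and matplotlib 3.10.9 were used.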

Additional observations from a re-analysis of the deposited data

How the results depend on the processing

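The alternatives were a pseudocount of 0.1, no filter on low FPKM, a filter at 5 FPKM, quantile normalization, upper quartile scaling, limma without trend and robust variances, the replicate block, the block with quantile normalization, and leaving out each library or, with the block, each pair. Limma called 2 members higher and 0 lower. It called 0 in either direction without the filter (5 higher and 8 lower at an unadjusted p under 0.05), where more genes were tested, and 0 without trend and robust variances (5 and 6), where the adjusted p was 0.0540 for Sla and 0.0517 for Samsn1. With the block it called 5 higher and 5 lower, and with quantile normalization as well 6 and 3. Among the further pathway genes 1 was higher without trend and robust variances, 8 (Nf1 included) were higher and 1 lower with the block, and 9 were higher with quantile normalization as well. Over all tested genes the counts were 42 higher and 6 lower, 2 and 0 without the filter (976 and 1277 unadjusted), 68 higher with upper quartile scaling, 498 and 781 with the block, and 519 and 478 with quantile normalization as well. Leaving out a library or pair gave 0 to 4 members higher and 0 to 1 lower, 0 to 1 further pathway genes higher, and 0 to 151 genes higher and 0 to 90 lower of all tested. Where 1 library left out leaves 2 against 3, the variance is pooled. The block changed no call of a member beyond the 8 genes named in the report.

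The median log2 fold change of the members was -0.05, -0.011 with quantile normalization, with or without the block, and -0.013 with upper quartile scaling, while the median of all tested genes was -0.03, -0.0063 and 0.0073 in the same settings. Over the leave-outs it was -0.0797 to 0.011. Of the 43 members 28 kept their direction in all 17 alternatives. The others had log2 fold changes of at most 0.13 in size. With quantile normalization, with or without the block, the sign turned for Cd3g (0.054), Ppp3ca (0.0058) and Ppp3r1 (0.0099). With upper quartile scaling it turned for Cd3g (0.041), Ppp3ca (0.022), Ppp3r1 (0.013), Pag1 (0.017) and Ubash3b (0.00024). Leaving out a library or pair turned the sign within these ranges: Cd3d -0.022 to 0.28, Cd3e -0.024 to 0.092, Cd3g -0.0797 to 0.092, Cd247 -0.062 to 0.14, Fyn -0.23 to 0.0073, Lcp2 -0.22 to 0.093, Rasgrp1 -0.12 to 0.025, Orai1 -0.15 to 0.12, Ppp3ca -0.097 to 0.062, Ppp3r1 -0.056 to 0.025, Rcan1 -0.045 to 0.098, Pag1 -0.062 to 0.024, Ubash3a -0.14 to 0.0075, Ubash3b -0.11 to 0.0203 and Dgka -0.034 to 0.10. The cause was not tested for any of these.

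With 3 libraries a group the precision is limited, and the 95% interval reached beyond a 1.5-fold change for 9 of the 43 members. Fragment counts were not used here, so the counting error of low genes such as Sos1 and Rcan1 is unknown.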
